A study of Rattus norvegicus with 4 samples.

Results

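The liver-rich miRNAs described here are the listed arms of miR-122, miR-192, miR-194 and miR-148a in serum exosomes (Exos) of rats. They were taken by name from the deposited table, in which 5 of the 243 listed miRNAs met this rule: miR-122-5p, miR-192-5p, miR-194-5p, miR-148a-3p and miR-148a-5p. Small RNA was sequenced in 4 libraries of Exos pelleted from serum by ultracentrifugation, with 2 libraries under the treatment label Exercise and 2 under the label Sedentary. Trained rats ran on a treadmill for 4 weeks (8 m/min, 30 min a day, 5 days a week, no slope), and sedentary rats did not train. The animals of the study were adult male SD rats. The series' design text names 20 rats in each group, but how many rats stand behind a library is not given in the sources used here. The study's methods describe its quantitative results as coming from independent biological replicates, but neither they nor the labels say which animals stand behind each library, so p-values measure the spread between these libraries, which may be technical. The 2 libraries labelled Sedentary have titles opening with E and the 2 labelled Exercise have titles opening with N, and these letters may conflict with the treatment labels, which was not settled here. Groups follow the treatment labels, and every direction below would turn if the letter E stood for exercise.

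miR-122 is the hallmark miRNA of hepatocytes, where it sustains the expression of genes of cholesterol and lipid metabolism, and its level in serum is widely used as a sign of liver injury. miR-192 and miR-194 are transcribed together from clustered genes in liver, but also in intestine and kidney, so in blood they are less specific to the liver. miR-148a is abundant in liver and made by many other cells, and among its known targets are transcripts for the LDL receptor and for a DNA methyltransferase. A miRNA recognises its targets mainly through its seed, bases 2 to 8 counted from the 5′ end, so miRNAs with the same seed share many predicted targets.

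The mature sequences are given because seeds decide which listed miRNAs are relatives of each member. They are RefSeq sequences of the rat assembly GRCr8, written 5′ to 3′ with the seed in capitals, and all 5 were identical to those of the deposited table.
rno-miR-122-5p: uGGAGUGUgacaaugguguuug
rno-miR-192-5p: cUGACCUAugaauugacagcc
rno-miR-194-5p: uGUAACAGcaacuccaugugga
rno-miR-148a-3p: uCAGUGCAcuacagaacuuug
rno-miR-148a-5p: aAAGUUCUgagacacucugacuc
No other listed miRNA had the seed of miR-122-5p, miR-194-5p or miR-148a-5p. The seed of miR-192-5p was shared by miR-215, and that of miR-148a-3p by miR-148b-3p and miR-152-3p.
rno-miR-215: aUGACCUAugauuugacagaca
rno-miR-148b-3p: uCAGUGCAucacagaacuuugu
rno-miR-152-3p: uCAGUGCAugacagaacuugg
miR-215 lay 4 edits from miR-192-5p over its length, and miR-148b-3p and miR-152-3p each lay 3 edits from miR-148a-3p. The closest listed sequence to miR-122-5p, that of miR-1-3p, was 8 edits away. The table also lists miR-122b, which is not an arm of miR-122 and is shown for its position.
rno-miR-122b: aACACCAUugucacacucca
Over all of its 20 nt, miR-122b is the reverse complement of bases 1 to 20 of miR-122-5p (sequence from the deposited table, with U in place of T).

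In GRCr8, miR-122-5p lies at chr18:61028831-61028852 on the plus strand within the hairpin gene Mir122, and miR-122b matches chr18:61028831-61028850 on the minus strand. miR-192-5p lies at chr1:212994232-212994252 on the plus strand, and its hairpin gene Mir192 is separated by 100 bases from that of Mir194-2 on the same strand. miR-215 lies at chr13:99383003-99383024 on the plus strand, with 191 bases between its hairpin gene and that of Mir194-1. miR-194-5p is identical in Mir194-1 and Mir194-2, so its reads cannot be assigned to either locus. The arms miR-148a-3p and miR-148a-5p lie at chr4:81664447-81664467 and chr4:81664483-81664505 on the minus strand, within Mir148a. The authors aligned to another assembly, mRatBN7.2, and these coordinates were not converted.

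The deposited values are RPM, reads scaled to a common total of the library, which the authors name TPM and which are not scaled for length. Taking the smallest value of a library as 1 read made every other value above 0 a whole number of reads (within 0.001), and this gave totals of 20780612 to 22140315 reads, of which 649210 to 814439 fell on listed miRNAs. A count of 0 allows up to 3 reads, or 0.135 to 0.144 RPM. Without molecular identifiers, intervals and this floor cover counting error only. Differences were tested with limma on log2(RPM + 1) for the 178 miRNAs above 0 in at least 2 libraries. A miRNA is called where its log2 fold change exceeds 1 in size with an adjusted p under 0.05, which held for 14 of the 178 (7.87%), of which 9 (5.06%) were higher and 5 (2.81%) lower under the exercise label. Because of the added 1, low miRNAs have smaller fold changes here than in RPM.

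miR-122-5p was the most abundant of the 5 and the only member called by limma, at a lower level in the libraries labelled Exercise. It held 1394 and 1469 RPM in the libraries labelled Sedentary and 696 and 732 RPM in those labelled Exercise. Both libraries of one label lay far above both of the other, and the 2 libraries of a label differed by 1.05-fold in each group. The means were 1431 ± 53.4 RPM and 714 ± 25.5 RPM (SD, n = 2 each), a 2.01-fold higher level under the sedentary label. If the title letter E stood for exercise, the same values would be 2.01-fold higher, not lower, with exercise. Its log2 fold change was -1.003 (standard error 0.13, 95% interval -1.32 to -0.68), with an adjusted p of 0.017 (limma, Benjamini-Hochberg). These values rest on 15286 to 30679 reads per library. The log2 fold change lay barely past the threshold. It was -0.73 when libraries were scaled to the total of the listed miRNAs, which ends the call. The call was also lost with a pseudocount of 10 (-0.99), with a single variance prior (adjusted p = 0.14 from limma) and with any 1 of the 4 libraries left out, where the adjusted p from limma ranged from 0.054 to 0.17.

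miR-192-5p stood well below miR-122-5p in every library and showed no difference between labels beyond the spread of its libraries. It held 68.5 and 132 RPM in the libraries labelled Sedentary and 115 and 88.9 RPM in those labelled Exercise. Sedentary replicate 1 was the lowest and sedentary replicate 2 the highest of the 4 libraries, so the groups overlapped. The means were 99.98 ± 44.6 RPM and 102 ± 18.4 RPM (SD, n = 2 each). The log2 fold change was 0.09 (standard error 0.34, 95% interval -0.76 to 0.94, adjusted p = 0.89 from limma), and this interval leaves room for changes in either direction. Without sedentary replicate 1 the log2 fold change was -0.38, and without sedentary replicate 2 it was 0.56.

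miR-148a-3p, the guide arm of miR-148a, was at a similar level, with 73.1 and 88.5 RPM under the sedentary label and 122 and 110 RPM under the exercise label. Both libraries labelled Exercise were above both labelled Sedentary, opposite to miR-122-5p. The means were 80.8 ± 10.9 RPM and 116 ± 8.53 RPM (SD, n = 2 each). The log2 fold change of 0.52 (standard error 0.20, 95% interval 0.03 to 1.02) did not pass the adjustment (adjusted p = 0.15 from limma). With libraries scaled to the listed total it was 0.79 with an adjusted p of 0.023 (limma), still short of the fold threshold. With median-of-ratios scaling it was 0.42 (adjusted p = 0.10 from limma), and a single variance prior gave an adjusted p of 0.39 (limma). Among the 4 members tested, the groups did not overlap for 2, miR-122-5p and miR-148a-3p, beside 52.2% of all tested miRNAs (32.0% above and 20.2% below under the exercise label). Of the 4, 1 had a log2 fold change below 0, beside 40.4% of all tested.

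miR-148a-5p, the other arm of the same hairpin, was low and uneven, with 0 and 105 reads (0 and 5.05 RPM) in the libraries labelled Sedentary and 181 and 92 reads (8.24 and 4.16 RPM) in those labelled Exercise. Its groups overlapped, and its log2 fold change of 1.49 had a 95% interval of -1.36 to 4.34 (adjusted p = 0.46 from limma). Without sedentary replicate 1 it was 0.19, and without sedentary replicate 2 it was 2.79. miR-194-5p was nearly undetected: 7 reads in exercise replicate 1 (0.319 RPM, exact Poisson 95% interval 2.81 to 14.4 reads) and 0 reads in the other 3 libraries. Above 0 in a single library, it was not tested. In that same library the neighbours of its 2 loci held 2525 reads (miR-192-5p) and 24450 reads (miR-215).

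**Figure D1:**
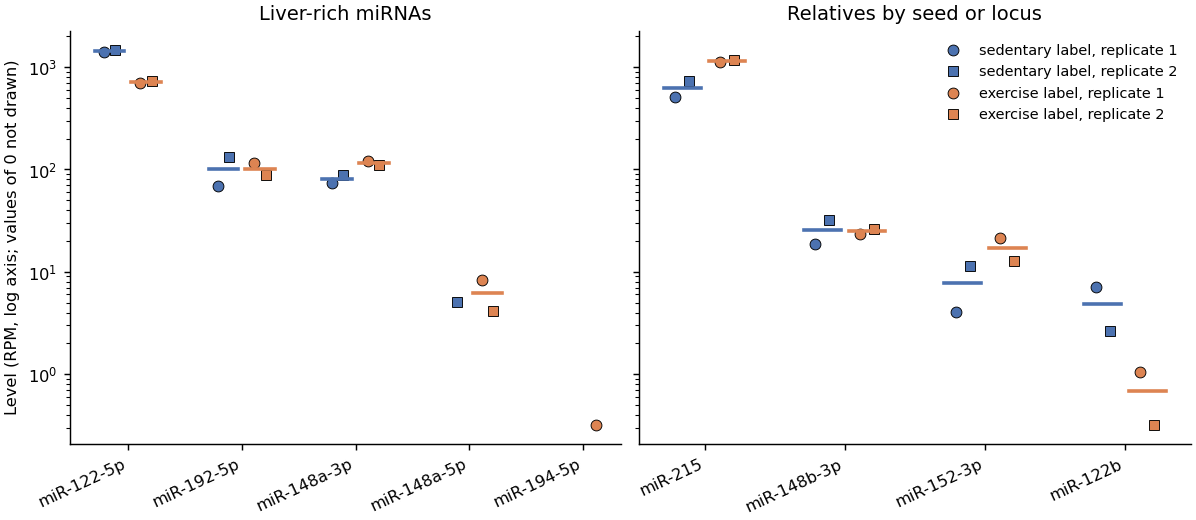
Level in RPM on a log axis of the 5 liver-rich miRNAs (left) and of 4 relatives by seed or locus (right) in each library, with circles for replicate 1, squares for replicate 2 and lines at group means where neither library was at 0; values of 0 are not drawn. miR-122-5p sits at 1394 and 1469 RPM under the sedentary label and at 696 and 732 RPM under the exercise label, while the groups of miR-192-5p overlap.

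**Figure D2:**
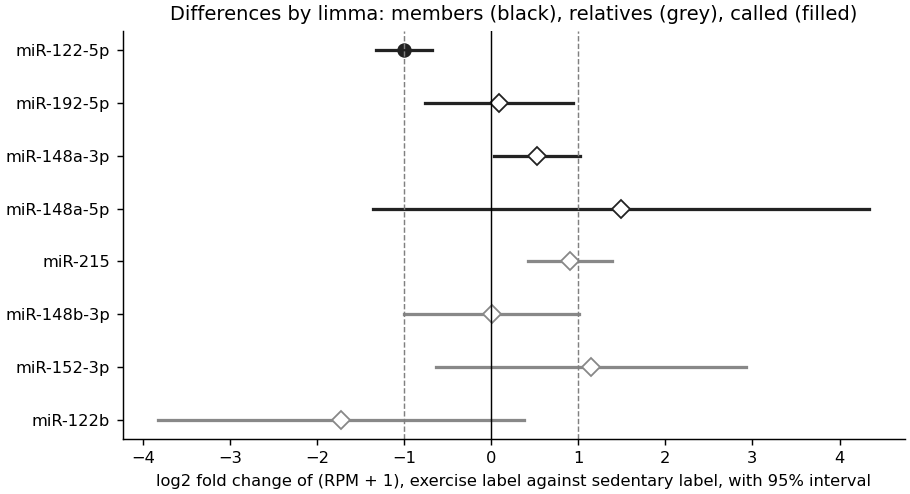
log2 fold change of (RPM + 1) between the exercise and the sedentary label (negative: lower under exercise), with its 95% interval from limma, for the members (black) and relatives (grey); dashed lines mark an absolute log2 fold change of 1. Of those drawn, miR-122-5p, at -1.003, is the 1 that was called (filled), and the interval of miR-192-5p runs from -0.76 to 0.94.

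The order of levels within a library was miR-122-5p first and miR-148a-5p and miR-194-5p last in all 4, with miR-192-5p and miR-148a-3p between them. miR-148a-3p was the higher of these in every library but sedentary replicate 2, and their levels did not differ beyond the spread between libraries. By level, miR-122-5p ranked 8 of the 243 listed miRNAs in both libraries labelled Sedentary and 10 in both labelled Exercise. miR-148a-3p ranked 36 and 35 under the sedentary label and 30 and 29 under the exercise label. miR-192-5p ranked 38 and 25 under the sedentary label and 31 and 32 under the exercise label. In both libraries labelled Exercise, the miRNA directly above miR-122-5p was miR-215 and the one directly below was let-7a-5p. The closest miRNA below it in both libraries labelled Sedentary was miR-25-3p.

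As a share of all reads on listed miRNAs, the 5 members together took 4.48% and 4.32% under the sedentary label and 2.98% and 3.19% under the exercise label. miR-122-5p made up most of this, with 4.07% and 3.75% against 2.21% and 2.50%. The Wilson 95% intervals of miR-122-5p cover counting error only. They did not touch between labels, nor between the 2 libraries of a label (4.02% to 4.11% and 3.71% to 3.79% against 2.17% to 2.24% and 2.46% to 2.53%). An exact two-sided permutation test of 2 libraries against 2 cannot go below p = 0.33, which is what it gave for this share (adjusted over 3 shares 0.50). miR-148a-3p went the other way, from 0.213% and 0.226% to 0.388% and 0.376% (exact permutation p = 0.33, adjusted 0.50), and miR-192-5p held 0.200% and 0.336% against 0.364% and 0.303% (exact permutation p = 0.67, adjusted 0.67). In a bulk preparation of serum Exos, fewer contributing cells or vesicles and less of a miRNA in each cannot be told apart.

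The hepatocyte miRNA was set against the broader members by ratios within a library, which do not depend on how libraries are scaled to each other. The ratio of miR-122-5p to miR-148a-3p was 19.1 and 16.6 in the libraries labelled Sedentary and 5.69 and 6.64 in those labelled Exercise. On the log2 scale with a pseudocount of 1 RPM it differed by -1.53 between labels. Its ratio to miR-192-5p was 20.4 and 11.2 under the sedentary label and 6.05 and 8.23 under the exercise label, a log2 difference of -1.09 that was -0.66 without sedentary replicate 1 and -1.52 without sedentary replicate 2. Neither ratio overlapped between labels, and each gave the smallest exact permutation p this design allows (0.33, adjusted over 3 pairs 0.50). The ratio of the broader members to each other, miR-148a-3p to miR-192-5p, was 1.07 and 0.673 under the sedentary label and 1.06 and 1.24 under the exercise label, with overlap (log2 difference 0.43, exact permutation p = 0.67, adjusted 0.67). This difference was 0.76 without sedentary replicate 1 and 0.10 without sedentary replicate 2.

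Ratios of miR-122-5p to other miRNAs were described in the same way, which largely restates its lower level under the exercise label. Its ratio was lower in both libraries labelled Exercise than in both labelled Sedentary for 70 of the 103 other miRNAs above 0 in all libraries (68.0%), and higher for 6 (5.83%). The corresponding ratios of miR-148a-3p were higher for 50 (48.5%) and lower for 18 (17.5%). Those of miR-192-5p were higher for 27 (26.2%) and lower for 26 (25.2%).

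**Figure D3:**
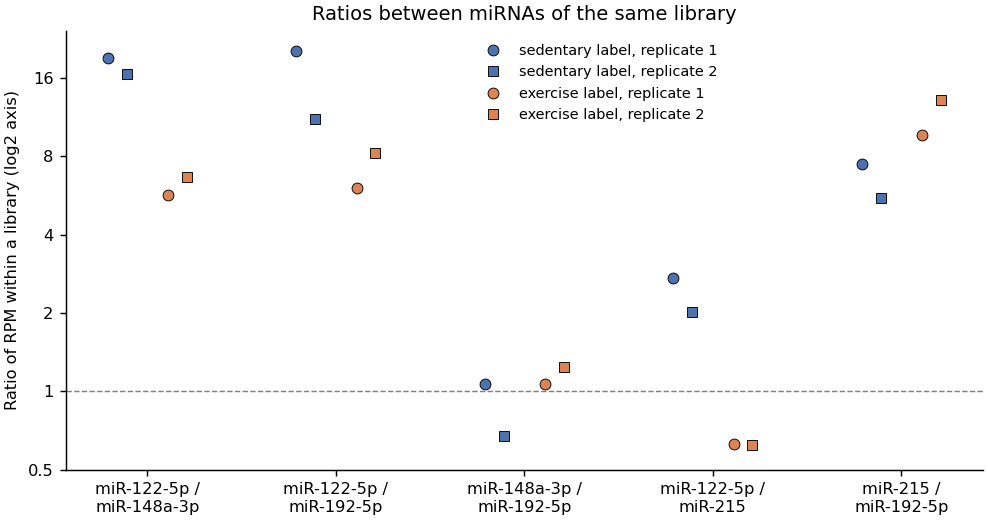
Ratio of RPM between pairs of miRNAs within each library on a log2 axis, with circles for replicate 1, squares for replicate 2 and a dashed line at equal levels. The ratio of miR-122-5p to miR-215 is 2.72 and 2.02 under the sedentary label and 0.625 and 0.624 under the exercise label, on either side of the line.

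Among the relatives, none was called. miR-215, which shares its seed with miR-192-5p and is known from intestine and kidney as well as liver, held 512 and 729 RPM in the libraries labelled Sedentary and 1113 and 1173 RPM in those labelled Exercise. The libraries labelled Exercise were both higher, and its log2 fold change of 0.90 had a 95% interval of 0.42 to 1.39 and an adjusted p of 0.043 (limma), short of the fold threshold. It was 1.17, and called, with libraries scaled to the listed total. The adjusted p from limma was 0.068 with a pseudocount of 0.1, 0.10 without the filter and 0.195 with a single variance prior. With 1 library left out the log2 fold change of miR-215 lay between 0.65 and 1.16. miR-215 was thus 7.49 and 5.54 times as abundant as miR-192-5p under the sedentary label and 9.68 and 13.2 times under the exercise label, and these ratios did not overlap. miR-122-5p exceeded miR-215 in both libraries labelled Sedentary (2.72 and 2.02 times) and was below it in both labelled Exercise (0.625 and 0.624 times).

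The relatives of miR-148a-3p were lower than it in every library. miR-148b-3p held 18.7 and 32.3 RPM under the sedentary label and 23.5 and 26.1 RPM under the exercise label, with overlap. Its log2 fold change of 0.0067 had a standard error of 0.41 and an adjusted p of 0.995 (limma), and its sign turned with median-of-ratios scaling and with a pseudocount of 10. miR-152-3p held 4.04 and 11.5 RPM against 21.2 and 12.8 RPM, without overlap, and was not called (log2 fold change 1.145, 95% interval -0.63 to 2.92, adjusted p = 0.38 from limma). With 1 library left out its log2 fold change lay between 0.49 (without sedentary replicate 1) and 1.797 (without sedentary replicate 2), and it was 0.62 with a pseudocount of 10.

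miR-122b, antisense to miR-122-5p, had 156 and 55 reads (7.09 and 2.65 RPM) in the libraries labelled Sedentary and 23 and 7 reads (1.05 and 0.316 RPM) in those labelled Exercise. It was lower under the exercise label without overlap, as miR-122-5p was, but limma did not call it (log2 fold change -1.73, standard error 0.85, adjusted p = 0.25). This value depended on the pseudocount, from -0.46 with 10 to -2.69 with 0.1, and was -2.89 with limma voom. Whether the authors' counting used the strand of the reads is not given in the sources used here, and without strand the reads of these opposite-strand miRNAs cannot be told apart. miR-122-5p held 197 and 555 times the level of miR-122b under the sedentary label and 665 and 2314 times under the exercise label.

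The members also differed in how closely the libraries of a label agreed. On the log2(RPM + 1) scale, the gap between the libraries of a label was 0.08 (sedentary) and 0.07 (exercise) for miR-122-5p. It was 0.27 and 0.15 for miR-148a-3p, and 0.93 and 0.37 for miR-192-5p. Over the 82 miRNAs with a mean of at least 10 RPM, the median gap was 0.43 under the sedentary and 0.24 under the exercise label. A larger gap than that of miR-122-5p was found for 85.4% of these miRNAs under either label, and a larger gap than that of miR-192-5p for 14.6% (sedentary) and 26.8% (exercise).

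**Figure D4:**
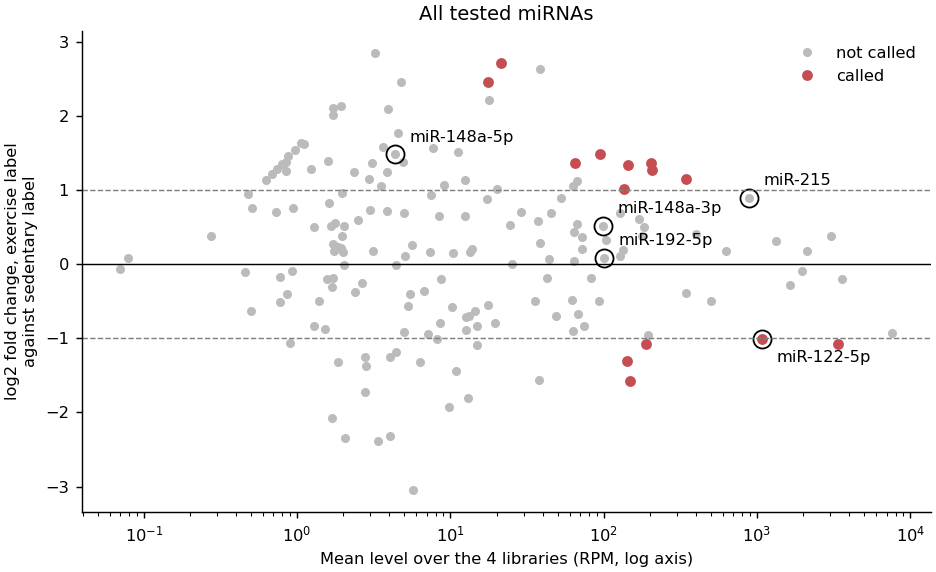
log2 fold change between the exercise and the sedentary label against the mean level over the 4 libraries (RPM, log axis) for the 178 tested miRNAs, with called miRNAs in red and the tested members and miR-215 circled. miR-122-5p lies just past the dashed line at an absolute log2 fold change of 1, while miR-148a-3p (0.52) and miR-192-5p (0.09) lie inside the lines at a similar level to each other.

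To find the miRNAs whose profile over the 4 libraries was most like that of a member, log2(RPM + 1) values were centred on the mean of each miRNA and compared by the root mean square distance among miRNAs with a mean of at least 10 RPM. With 4 libraries, such likeness is a description. The profiles closest to miR-122-5p were those of miR-28-3p (distance 0.10), miR-328a-3p (0.11) and miR-320-3p (0.14), beside a median distance of 0.66 over 81 miRNAs. miR-28-3p held 235 and 276 RPM under the sedentary label and 138 and 124 RPM under the exercise label (log2 fold change -0.95, 95% interval -1.37 to -0.54, adjusted p = 0.025 from limma, short of the fold threshold). Closest to miR-192-5p were miR-181d-5p (0.10), miR-378a-3p (0.13) and miR-148b-3p (0.20), beside a median of 0.53. All of these shared the low value in sedentary replicate 1. Closest to miR-148a-3p were miR-27b-3p (0.08), the muscle miRNA miR-1-3p (0.08) and miR-146b-5p (0.10), beside a median of 0.46. For miR-148a-5p the closest profile was that of miR-152-3p (0.49), followed by miR-23b-3p (0.66) and miR-451-5p (0.74), beside a median of 1.15.

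**Figure D5:**
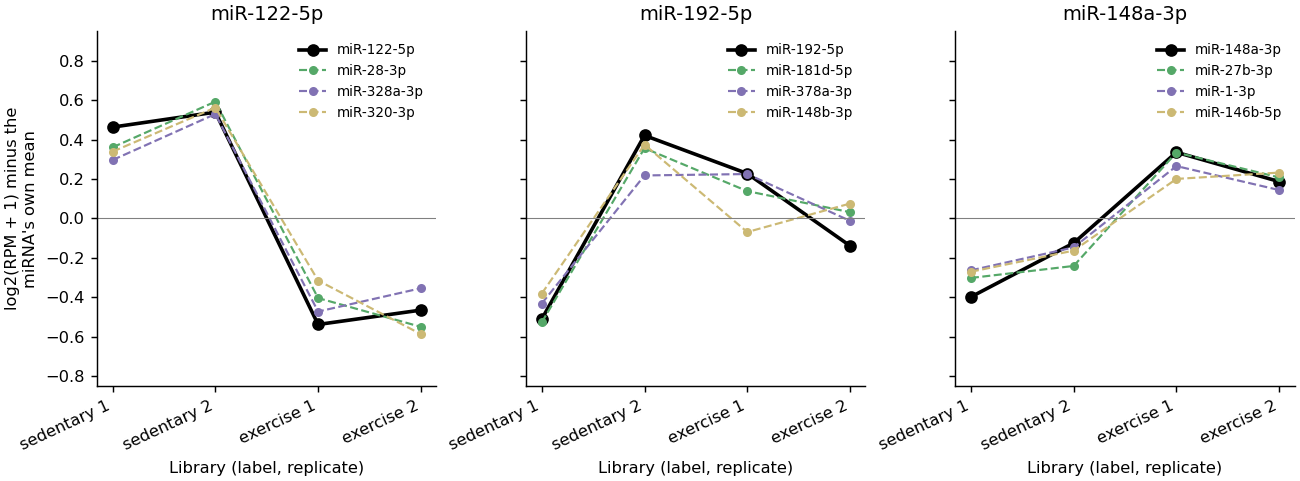
log2(RPM + 1) minus each miRNA's own mean in the 4 libraries, for miR-122-5p, miR-192-5p and miR-148a-3p (black) and the 3 miRNAs closest to each by root mean square distance (dashed). The drop between labels of miR-122-5p is shared by miR-28-3p (distance 0.10), and miR-192-5p and its closest profile miR-181d-5p (0.10) are lowest in sedentary replicate 1.

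Other miRNAs known to be abundant in liver were described by a list of 10, of which 9 were tested. 2 of the 9 were called, both higher under the exercise label (5.06% of all tested miRNAs were). A log2 fold change above 0 was found for 8 of the 9, beside 59.6% of all tested miRNAs. The median of the 9 was 0.65, beside 0.21 over all tested miRNAs. miR-26a-5p held 134 and 96.9 RPM under the sedentary label and 288 and 301 RPM under the exercise label (log2 fold change 1.36). miR-30a-5p held 93.8 and 68.1 RPM against 236 and 178 RPM (log2 fold change 1.35). Both are made in many tissues, and their groups did not overlap. Both calls were lost with median-of-ratios scaling (adjusted p = 0.051 and 0.057 from limma), without the filter, with a single variance prior and with any 1 library left out, and their adjusted p from limma ranged up to 0.32 over all alternatives. Of a list of 5 miRNAs with roles in liver metabolism, 1 was listed, miR-378a-3p, with 52.3 and 82.7 RPM against 83.1 and 70.3 RPM. It was not called (log2 fold change 0.21, adjusted p = 0.66 from limma). The list of 5 seed and cluster relatives, which holds miR-215 and miR-194-5p, had 4 listed and 3 tested miRNAs. Of the 3, 0 were called by limma and 0 by limma voom. All 3 had a log2 fold change above 0 (median 0.90), beside 59.6% of all tested miRNAs. With p under 0.05 before adjustment and the fold threshold kept, 0 of them passed, where 39 of all tested miRNAs did (21.9%, with 15.2% higher and 6.74% lower).

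Lists of markers of other sources are given beside these values. The summed level of the 5 red cell miRNAs was 8769 and 11312 RPM under the sedentary label and 5774 and 4806 RPM under the exercise label. This sum was nearly all miR-486 (8754 and 11162 RPM against 5710 and 4724 RPM), while the other 2 tested had log2 fold changes above 0. Another red cell marker, miR-451-5p, held 14.7 and 148 RPM under the sedentary and 54.0 and 70.4 RPM under the exercise label, so sedentary replicate 1 was low in it as in miR-192-5p. Of the 5, 3 were tested and 0 called by limma or limma voom, with 1 past the unadjusted p and fold threshold. That 1 was miR-16-5p, with 0 and 1.97 RPM under the sedentary and 8.42 and 8.67 RPM under the exercise label (adjusted p = 0.15 from limma), opposite to the sum. With 1 library at 0, its log2 fold change of 2.47 ranged from 0.76 with a pseudocount of 10 to 5.33 with limma voom, and lay between 1.68 and 3.25 with 1 library left out. The 6 white cell miRNAs summed to 84.0 and 107 RPM under the sedentary label and 191 and 200 RPM under the exercise label. All 6 were tested with a log2 fold change above 0 (median 1.16), beside 59.6% of all tested miRNAs and a median of 0.21. miR-150-5p was called, though not without the filter, with a single variance prior or with any 1 library left out, and made up most of the sum, with 41.6 and 56.9 RPM against 149 and 129 RPM. Without it the sum was 42.5 and 49.8 RPM under the sedentary label and 41.8 and 71 RPM under the exercise label, with overlap. The 8 epithelial miRNAs, of which 6 were listed and 4 tested, summed to 817 and 972 RPM against 1252 and 1315 RPM, mostly miR-215. Without miR-215 the sum went the other way, with 305 and 243 RPM under the sedentary label and 140 and 142 RPM under the exercise label. miR-375-3p, an islet and epithelial miRNA, was the 1 called in that list and was lower under the exercise label (291 and 223 RPM against 122 and 119 RPM). Its call was lost with libraries scaled to the listed total (log2 fold change -0.80), without the filter, with a single variance prior and with any 1 library left out. The 4 muscle miRNAs summed to 371 and 428 RPM against 497 and 450 RPM, and the 4 endothelial and platelet miRNAs to 151 and 150 RPM against 211 and 190 RPM, with 0 called of the 3 and 4 tested by limma or limma voom and 1 and 2 past the unadjusted p and fold threshold. The endothelial and platelet sum differed through miR-191a-5p (48.2 and 35.6 RPM against 102 and 81.5 RPM, adjusted p = 0.058 from limma), and without it was 102 and 115 RPM against 108 and 109 RPM, with overlap. The muscle sum was mostly miR-1-3p, whereas the 1 past that threshold, miR-206-3p, was at 41.6 and 72.9 RPM under the sedentary and 21.9 and 14.8 RPM under the exercise label (log2 fold change -1.56, adjusted p = 0.074 from limma). The part of these sources in the differences of miR-122-5p and miR-148a-3p was not tested.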

How the data were processed

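Small RNA of serum Exos was measured in 4 libraries, grouped by the treatment labels. The authors trimmed reads with cutadapt, kept reads of 18 to 35 nt, aligned them to mRatBN7.2 with an aligner named Bowtie or Bowtie2, counted them on miRBase miRNAs with featureCounts and deposited RPM values that they name TPM. Their sums show a total that holds more than the listed miRNAs. Members and marker lists were chosen with earlier results of these data known. RPM values were compared on log2(RPM + 1) with limma (version 3.58.1, R 4.3.3) and a variance prior following mean level, and ratios by exact permutation tests in Python 3.11.15 with scipy 1.17.1. The fit was tried on simulated data with changes well past the fold threshold and the same spread for all miRNAs. That trial does not cover changes near the threshold. Named miRNAs are the members, their seed relatives, the 3 closest profiles of each member, neighbours in rank, and list members that were called or among the 3 highest of a list. miR-122b, the antisense partner, lies outside this rule and was chosen after its values were seen. Alternatives changed pseudocount (0.1, 10), filter, scaling, variance prior, thresholds, replicate block and share denominator, or left out each library. limma voom used reads derived from the smallest value, and count models were not run because too few low values were present to recover reads formally. Deviations of same-numbered libraries correlated at -0.15 over 178 miRNAs, and the labels tie no number to a shared source, so replicate numbers were not treated as pairs.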

Additional observations from a re-analysis of the deposited data

How the results depend on the processing

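miR-122-5p kept its direction under all alternatives run, from -1.11 (median-of-ratios scaling) to -0.73. It was not called with a pseudocount of 10 (-0.99), with scaling to the listed miRNA total (-0.73) or with a single variance prior (-1.003, adjusted p = 0.14 from limma, the highest of a range from 4.99e-05 over the alternatives with all libraries), and with 1 library left out it lay between -1.04 and -0.96. miR-192-5p turned sign with median-of-ratios scaling (-0.0119) and ranged from -0.38 to 0.56 with 1 library left out, and the log2 ratio of its mean shares from -0.0079 to 0.74. With all libraries, miR-148a-3p lay between 0.42 and 0.79 and miR-148a-5p between 0.39 and 4.11, and with 1 library left out between 0.39 and 0.66 and between 0.19 and 2.79. Neither turned sign or was called. No log2 ratio between members turned sign.

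The number of miRNAs called, 14 (9 higher, 5 lower), was 3 without the filter (1 and 2), 0 with a single variance prior (0 and 0, with 44 at an unadjusted p; limma voom called 12), and 39 at an unadjusted p (27 and 12). Median-of-ratios scaling called 14 (5 higher, 9 lower), and scaling to the listed total 15 (13 higher, 2 lower), a scaling that moved the median log2 fold change of all tested miRNAs from 0.21 to 0.44. With 1 library left out, where the lone library of a label is assumed to vary like the others, the count ranged from 0 to 11 in all, from 0 to 11 for higher and from 0 to 0 for lower. It was 0 without either library labelled Sedentary (44 and 46 at an unadjusted p), and 11 and 10 without either labelled Exercise.

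The replicate block called 18 miRNAs (12 higher, 6 lower), and so did a crossed block, added after seeing the data. Both kept the call of miR-122-5p (-1.003), and neither turned another call of a member; the numbers are not known to pair libraries. miR-148b-3p turned sign with a pseudocount of 10 (-0.0042) and median-of-ratios scaling (-0.0905). With 1 library left out, it ranged from -0.37 to 0.38, miR-451-5p from -1.25 to 2.00, miR-181d-5p from -0.27 to 0.61 and miR-378a-3p from -0.11 to 0.54. Apart from left-out libraries, the 24 other named and tested miRNAs kept their direction and call in 251 values, lost a call in 11, gained one in 22 and turned sign in 2. With 1 library left out these were 75, 16, 0 and 5. The cause of these changes was not tested.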
